A study of Mus musculus with 9 samples.

Results

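Mouse T cells that reached the Th1 condition by way of a Th17 polarization were compared with T cells kept in the Th1 condition throughout. Both groups stood in the same Th1 condition when RNA was taken and differed in the condition of the first polarization. The comparison uses 6 of the 9 libraries of the series, 3 Th17-derived Th1 and 3 Th1, and the 3 Th17 libraries stand beside them as the state the Th17-derived cells were first directed to. Of 22017 gene symbols, 10538 reached 1 FPKM (the fragment count of a gene relative to its transcript length and to the size of the library) in at least 3 of the 9 libraries and were tested.

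All cells came from spleens of wild-type C57BL/6 mice, whose age is not stated, and were labelled T cells. The series text describes the starting cells as naive. Cells were activated through CD3 and CD28 for 3 days, kept in cytokines, moved to IL-2 (100 U/mL) on day 5, and activated again on day 7 with soluble anti-CD3 and anti-CD28 (0.05 ug/mL each) and IL-2. RNA was taken on day 10. Th1 cells received IL-12 (10 ng/mL) and anti-IL-4 in both periods. Th17 cells received TGF-beta (1 ng/mL), IL-6 (20 ng/mL), IL-1beta (10 ng/mL), anti-IFN-gamma, anti-IL-12 and anti-IL-4 in both periods. Th17-derived Th1 cells received that Th17 mix in the first period and the IL-12 and anti-IL-4 mix from day 7. The 2 groups therefore also differ in how long IL-12 was present and in whether IFN-gamma was blocked early, and these cannot be told apart from the Th17 cytokines. Whether replicates came from different cultures or different mice is not stated in the labels, and the spread behind each p-value may therefore be technical. No library of the Th17-derived group was taken before the change of condition.

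Th1 cells are the helper cells of defence against intracellular microbes. IL-12 acts through STAT4, and the factor T-bet (gene Tbx21) then drives IFN-gamma, CXCR3 and other effector genes. Th17 cells are induced by TGF-beta with IL-6 and IL-1beta, make IL-17 and are known to lose that cytokine and gain IFN-gamma when they meet IL-12. TCF-1 (Tcf7) marks T cells that keep a capacity to renew themselves, and long-lived or stem-like T cells usually carry it with CCR7, the lymph node homing receptor.

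FPKM per library summed to 386942 to 405985, and 13374 to 13712 genes were above 0. Read depth is unknown, since FPKM values hold no counts. On log2(FPKM + 1), the 3 Th17-derived Th1 libraries correlated with each other across genes at 0.975 to 0.993. Th1 replicate 2 stood apart from the other Th1 libraries, with 0.964 and 0.967 against 0.990 between replicates 1 and 3. Between the groups the correlations were 0.943 to 0.971. Genes are not independent replicates, and these values only describe the libraries. Replicate 3 of every group held more of the CD8 co-receptor RNA than replicates 1 and 2. Cd8a was at 17.4, 27.4 and 104 FPKM in Th17-derived Th1 and 15.3, 19 and 117 FPKM in Th1 libraries (replicates 1, 2 and 3, the order used throughout), and the labels do not name a CD4 selection. With the Cd8a and Cd8b1 level as a covariate in the test described next, 3 of the 105 called genes chosen by the naming rule lost their call (Ctla4, Icos and Smad7), and the counts of called genes are also given without replicate 3 of any group.

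The labels were checked against defining genes. Cd4 was at 91.1, 86.8 and 96.9 FPKM in Th17-derived Th1 and 124, 81.1 and 57.1 FPKM in Th1 libraries (limma adjusted p = 0.798), and the summed T cell identity genes, among them the CD3 chains, were at 2673 to 2913 FPKM and 2793 to 2967 FPKM. In replicate 3 of both groups Cd8a, at 104 and 117 FPKM, stood above Cd4. The libraries were therefore not shown to hold helper cells alone, and the share of CD8 T cells was not measured. Il17a, the defining Th17 cytokine, stood at 0.16, 0.103 and 0.102 FPKM in Th17-derived Th1 libraries, and in Th1 libraries at 0 in every one, with a mean of 4.46 ± 1.6 FPKM (SD, n = 3, as for every Th17 mean here) in Th17. Ifng, the defining Th1 cytokine, was at 975, 990.3 and 717 FPKM in Th17-derived Th1 and 1005, 2013 and 1137 FPKM in Th1 libraries, against 24.9 ± 13.9 FPKM in Th17. Both groups thus carried the Th1 cytokine at a high level and the Th17 cytokine at or near 0, as their labels say.

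Of the 10538 genes, 1104 (10.5%) differed between Th17-derived Th1 and Th1 cells at an adjusted p under 0.05 (limma with a mean-variance trend on log2(FPKM + 1), two-sided, Benjamini-Hochberg adjustment over all genes tested). Of these, 597 (5.67% of genes tested) were higher and 507 (4.81%) lower in Th17-derived Th1 cells. At least 2-fold differences were found for 184 genes (1.75%) in the higher and 143 (1.36%) in the lower direction. At an unadjusted p under 0.05 in limma, 2789 genes (26.5%) differed in either direction. List members at that cut are counted below by direction, and only their counts in both directions together stand beside this share. The 3 libraries of each group did not overlap in 3073 genes (29.2%), 1717 (16.3%) higher and 1356 (12.9%) lower. Over all genes tested the median log2 difference was 0.05. All fold changes are on the log2(FPKM + 1) scale, which understates the change of genes at low FPKM, and all differences are Th17-derived Th1 minus Th1. Median-ratio scaling of the libraries gave 512 higher and 610 lower genes, quantile normalization 509 and 578, and rescaling to equal sums 674 and 428, so the direction with more calls depended on the scaling. Without replicate 3 of any group, 327 genes were higher and 359 lower. Single libraries moved these counts. Without Th1 replicate 3, Th17-derived Th1 replicate 1 or Th17-derived Th1 replicate 2, 254, 254 and 215 genes were higher and 186, 151 and 124 lower. Without Th1 replicate 1, 264 were lower, and without Th1 replicate 2, the library that stood apart, 1070 were higher and 828 lower. At least 2-fold lower genes numbered 84, 71 and 71 without the first 3 of these libraries, 227 without Th1 replicate 2 and 234 without Th17-derived Th1 replicate 3. In bulk RNA, fewer cells of a type and less RNA per cell cannot be told apart.

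**Figure D1:**
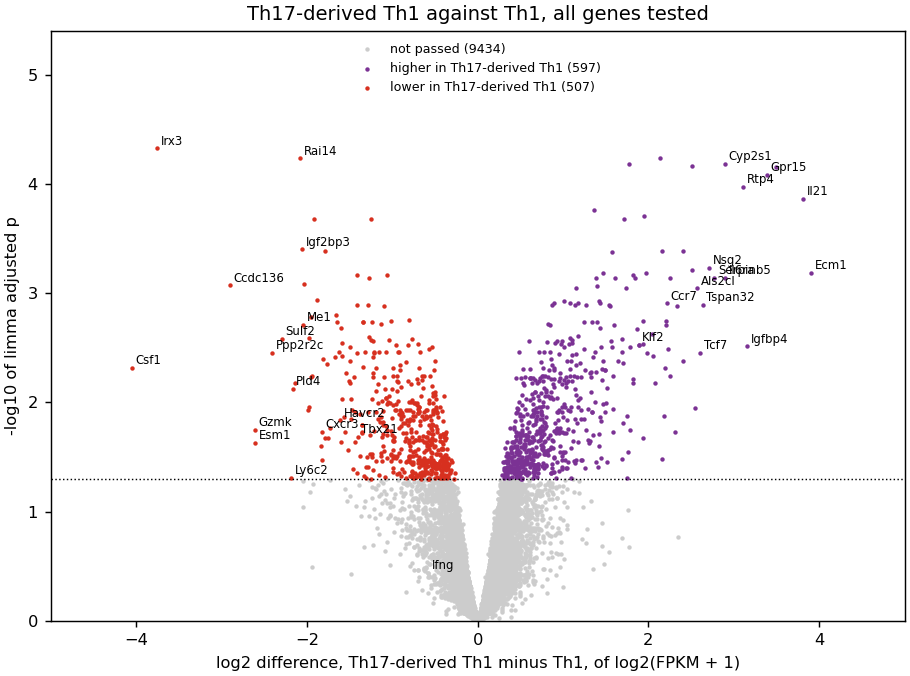
Each point is 1 of the 10538 genes tested, with the log2 difference of Th17-derived Th1 minus Th1 on the x axis and -log10 of the limma adjusted p on the y axis. The dotted line is an adjusted p of 0.05, and purple (597 genes) and red (507 genes) mark genes higher and lower in Th17-derived Th1 cells, with Ecm1 and Il21 farthest right, Csf1 and Irx3 farthest left, and Ifng below the line.

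The largest higher differences included a cytokine gene, receptor genes and the gene of TCF-1. The 12 genes named in each direction were chosen by size among called genes whose 2 groups did not overlap. From here on, values before "against" are the 3 Th17-derived Th1 libraries and values after it the 3 Th1 libraries. Ecm1, a secreted matrix glycoprotein (chromosome 3, 95734147 to 95739569, GRCm38), was at 209, 180.2 and 166 FPKM in Th17-derived Th1 and 17.2, 6.31 and 13.3 FPKM in Th1 libraries. It was 15-fold higher (log2 difference 3.90, SE 0.36, adjusted p = 0.000647). The Th17 mean was 43.8 ± 15.9 FPKM, so every Th17-derived Th1 library also lay above every Th17 library. Il21 (chromosome 3, 37222759 to 37232636), the cytokine IL-21 that helps B cells and sustains T cells, was at 45.3, 26.4 and 21.3 against 1.8, 0.913 and 0.919 FPKM. For Il21 the difference was 14-fold (log2 3.81, SE 0.26, adjusted p = 0.000137). Il21 stood at 0.569 ± 0.166 FPKM in Th17, where every library was below every Th1 library. Serpinb5, a serpin, had the same order of groups, at 14.6, 8.63 and 5.78 against 0.464, 0.273 and 0.712 FPKM (log2 2.77, SE 0.26, adjusted p = 0.000726), and Th17 libraries at 0, 0.0181 and 0 FPKM.

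The next genes were also high in Th17. Gpr15 (chromosome 16, 58717433 to 58719070), a receptor that guides T cells to the colon, was at 26.5, 26.4 and 25.5 against 2.39, 1.98 and 0.731 FPKM, with a Th17 mean of 32.2 ± 2.4 FPKM. Its 10.5-fold difference (log2 3.39, SE 0.21, adjusted p = 8.26e-05) came with 3 nearly equal Th17-derived libraries. Il6ra, the IL-6 receptor chain, was at 12.7, 14.4 and 11.4 against 0.659, 1.56 and 0.478 FPKM and 24.2 ± 8.24 FPKM in Th17 (log2 2.90, SE 0.28, adjusted p = 0.000726). Igfbp4, an insulin-like growth factor binding protein and one of the most abundant of these RNAs, was at 678, 603 and 381 against 58, 111 and 32.1 FPKM and 413 ± 113 FPKM in Th17 (log2 3.16, SE 0.42, adjusted p = 0.00306). Tcf7 (chromosome 11, 52252371 to 52283014) was at 253, 272 and 366 against 79.2, 26.2 and 50.6 FPKM, with 371 ± 93.2 FPKM in Th17. The 6.08-fold difference (log2 2.60, SE 0.36, adjusted p = 0.0035) came with Th1 replicate 2 as the lowest library. Cyp2s1, a cytochrome P450, Nsg2, the tetraspanin Tspan32 and Als2cl were higher by log2 2.89, 2.71, 2.64 and 2.57, and all 4 had higher values in every Th17 than in any Th1 library. Rtp4, an interferon-induced gene, completed the 12 and is described with the antiviral genes. All 12 stayed under an adjusted p of 0.05 when any 1 of the 9 libraries was left out.

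Upstream sequences are shown for Ecm1 and Il21, the largest higher differences, and for Serpinb5, which shared the order of groups of Il21. The 250 bases before the gene's start were searched on both strands for 5 motifs, in the 11 of the largest higher and the 12 largest lower genes that have a RefSeq promoter entry and in all 8365 tested genes with one. The AP-1 motif TGANTCA was in 3 of the 11, 0 of the 12 and 5.06% of all. The interferon-stimulated response element (GAAA, any 2 bases and GAAA) was in 2, 2 and 3.38%, the STAT motif TTCNNNGAA in 1, 0 and 7.21%, and the T-box motif AGGTGTGA and the TCF motif CTTTGAT in none of either group and in 0.944% and 2.67% of all. Each sequence runs 5′ to 3′ on the gene's strand (RefSeq, GRCm38.p6) and ends at the base before the start, and capitals mark the AP-1 motif. Ecm1 (chr3:95739570-95739819, minus strand) holds it with its first base at -64 (-1 is the base before the start), Serpinb5 (chr1:106860925-106861174, plus strand) at -140, and Il21 (chr3:37232637-37232886, minus strand) has no match. A match is a description of the letters, not evidence of binding.
Ecm1: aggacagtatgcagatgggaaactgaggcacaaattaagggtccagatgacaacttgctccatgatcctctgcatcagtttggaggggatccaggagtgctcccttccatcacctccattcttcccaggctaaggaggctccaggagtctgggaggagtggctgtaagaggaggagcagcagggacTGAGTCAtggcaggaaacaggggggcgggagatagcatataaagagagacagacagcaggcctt
Serpinb5: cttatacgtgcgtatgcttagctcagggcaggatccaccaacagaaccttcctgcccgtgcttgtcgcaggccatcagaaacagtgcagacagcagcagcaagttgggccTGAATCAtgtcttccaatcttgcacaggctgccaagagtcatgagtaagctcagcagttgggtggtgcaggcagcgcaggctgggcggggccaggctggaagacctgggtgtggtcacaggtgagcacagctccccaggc
Il21: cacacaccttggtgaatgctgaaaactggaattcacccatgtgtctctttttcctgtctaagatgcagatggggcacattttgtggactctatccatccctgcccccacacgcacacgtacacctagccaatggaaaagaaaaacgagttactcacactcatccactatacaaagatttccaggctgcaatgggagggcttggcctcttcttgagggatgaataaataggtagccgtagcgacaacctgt

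Among genes lower in Th17-derived Th1 cells, Csf1, the macrophage growth factor M-CSF, showed the largest difference. Csf1 (chromosome 3, 107741048 to 107760469) was at 11.8, 7.97 and 35.6 against 416, 113 and 399.7 FPKM, and at 1.18 ± 0.6 FPKM in Th17. It was 16.6-fold lower (log2 -4.05, SE 0.60, adjusted p = 0.0048), with Th17-derived replicate 3 well above the other Th17-derived libraries and Th1 replicate 2 the lowest of its group. Irx3 (chromosome 8, 91798525 to 91802067), a homeobox factor, was at 0.0687, 0.0928 and 0.184 against 17.9, 10.3 and 14.8 FPKM and listed at 0 in all 3 Th17 libraries (log2 -3.75, SE 0.18, adjusted p = 4.71e-05). The Th1 libraries were thus the only ones of the 9 above 1 FPKM for Irx3. Sulf2, an extracellular sulfatase, was at 5.12, 4.38 and 9.94 against 46.6, 24 and 34.6 FPKM (log2 -2.29, adjusted p = 0.00263) and Me1, the cytosolic malic enzyme, at 1.51, 1.13 and 1.18 against 6.01, 13.6 and 6.91 FPKM (log2 -2.04, adjusted p = 0.00195). Ccdc136, Ppp2r2c, a regulatory subunit of protein phosphatase 2A, Pld4, Rai14 and the RNA-binding protein Igf2bp3 were lower as well (log2 -2.90, -2.41, -2.17, -2.08 and -2.05). These 9 calls held with any 1 library left out.

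Calls of 3 further genes depended on single libraries. Gzmk, granzyme K, was at 2.01, 4.95 and 8.47 against 26.7, 26.2 and 50.4 FPKM (log2 -2.61, adjusted p = 0.0179) and Esm1, a secreted proteoglycan, at 7.9, 7.92 and 22.9 against 56, 69.2 and 106 FPKM (log2 -2.61, adjusted p = 0.0233). The annotated spans of Gzmk and Esm1 overlap on chromosome 13, and since strand use in counting is not given in the sources used here, their reads may not be separate. Without Th1 replicate 3, or Th17-derived Th1 replicate 1 or 2, both missed the threshold, with adjusted p up to 0.0715 for Gzmk and 0.0993 for Esm1. Ly6c2, a surface antigen of effector T cells with near-identical copies, was at 84.7, 123 and 326 against 694, 492 and 943 FPKM (log2 -2.18, adjusted p = 0.0488) and missed it when Th1 replicate 1 or 3, Th17-derived Th1 replicate 1 or 2, or Th17 replicate 1 or 2 was left out (adjusted p up to 0.168).

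**Figure D2:**
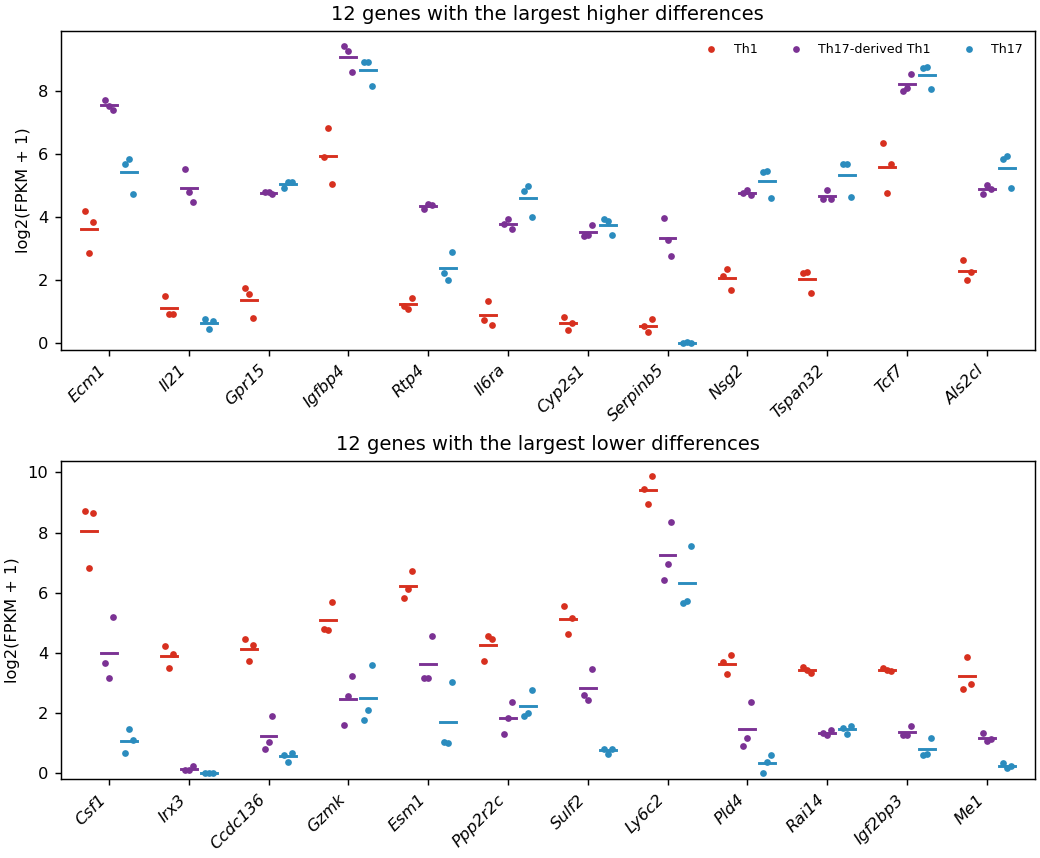
Log2(FPKM + 1) of the 12 genes with the largest higher (top) and lower (bottom) differences, with 1 point per library, replicates 1 to 3 from left to right, and bars for the group means. Th17-derived Th1 (purple) and Th1 (red) points do not overlap, as the choice of the genes required, and Th17 (blue) lies near the purple points for Gpr15 and Tcf7 and below them for Ecm1, Il21 and Serpinb5.

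Within the Th1 program, the factor gene Tbx21 was lower in Th17-derived Th1 cells and the cytokine gene Ifng did not pass the test; the difference between these effects was not tested. Of 27 Th1 genes, 26 were tested, and 10 were lower, 2 higher and 14 did not pass, with a median log2 difference of -0.70 against 0.05 over all genes. The lower share, 38.5%, stands beside 4.81% of all genes. Lists count members that passed the FPKM filter, which a gene can pass through 1 group alone, and they were compiled with results of these data known.

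Tbx21 was at 26.7, 24.1 and 48.1 against 92.9, 67.5 and 97.3 FPKM, and at 8.51 ± 3.33 FPKM in Th17. All Th17-derived libraries lay below all Th1 libraries and above all Th17 libraries, with replicate 3 the highest, a 2.65-fold difference (log2 -1.40, SE 0.30, adjusted p = 0.0205). Ifng, with the values given above, differed by -0.58 on the log2 scale (SE 0.37, adjusted p = 0.362). Its groups did not overlap, but Th1 replicate 2, at 2013 FPKM, was far above the other Th1 libraries. Cxcr3, the chemokine receptor that T-bet controls, was at 10.2, 11.5 and 24.7 against 68, 35.8 and 61.2 FPKM (log2 -1.82, SE 0.38, adjusted p = 0.0186). The Cxcr3 mean of Th17, 17.1 ± 6.89 FPKM, lay close to that of Th17-derived Th1 cells. Ccl5, the chemokine RANTES, was at 78.7, 83.2 and 167 against 509, 188 and 536 FPKM (log2 -1.84, adjusted p = 0.0252), and Fasl, the death ligand, at 8.59, 9.53 and 21.9 against 38.9, 43.1 and 52.4 FPKM (log2 -1.78, adjusted p = 0.021).

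Twist1, a factor that T-bet and STAT4 induce in repeatedly activated Th1 cells, was at 0.179, 0 and 0.063 against 4.72, 1.9 and 3.37 FPKM (log2 -1.95, SE 0.22, adjusted p = 0.00166). Furin, a protease induced by IL-12, was at 556, 518 and 639 against 1020.1, 779 and 999 FPKM and only 57.7 ± 6.14 FPKM in Th17 (log2 -0.70, adjusted p = 0.0126). Th17-derived cells were therefore several-fold above Th17 in Furin and below Th1. Txk, a Tec family kinase, was higher by 0.66 (adjusted p = 0.0464). Il12rb2, the IL-12 receptor chain, was at 59.3, 53.4 and 82 against 147, 58.1 and 129 FPKM and did not pass (adjusted p = 0.228), like Runx3 (log2 -0.46, adjusted p = 0.0547) and Eomes (log2 -0.63, adjusted p = 0.335).

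Among the Th1 genes named, Twist1 kept its call with any 1 library left out. Tbx21, Cxcr3 and Ccl5 lost it without Th1 replicate 1 or 3 or without Th17-derived Th1 replicate 1 or 2 (adjusted p up to 0.0885, 0.0835 and 0.104). Fasl and Furin lost it without Th1 replicate 3 or Th17-derived Th1 replicate 1 or 2 (up to 0.091 and 0.0629). Txk lost it without Th1 replicate 1 or 2, any Th17-derived Th1 library, or Th17 replicate 1 or 2 (up to 0.154). The count of lower Th1 genes was 2 without Th1 replicate 3 or Th17-derived Th1 replicate 1 or 2, 6 without Th1 replicate 1, and 10 to 14 in the other such fits. It was 11 without replicate 3 of any group.

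**Figure D3:**
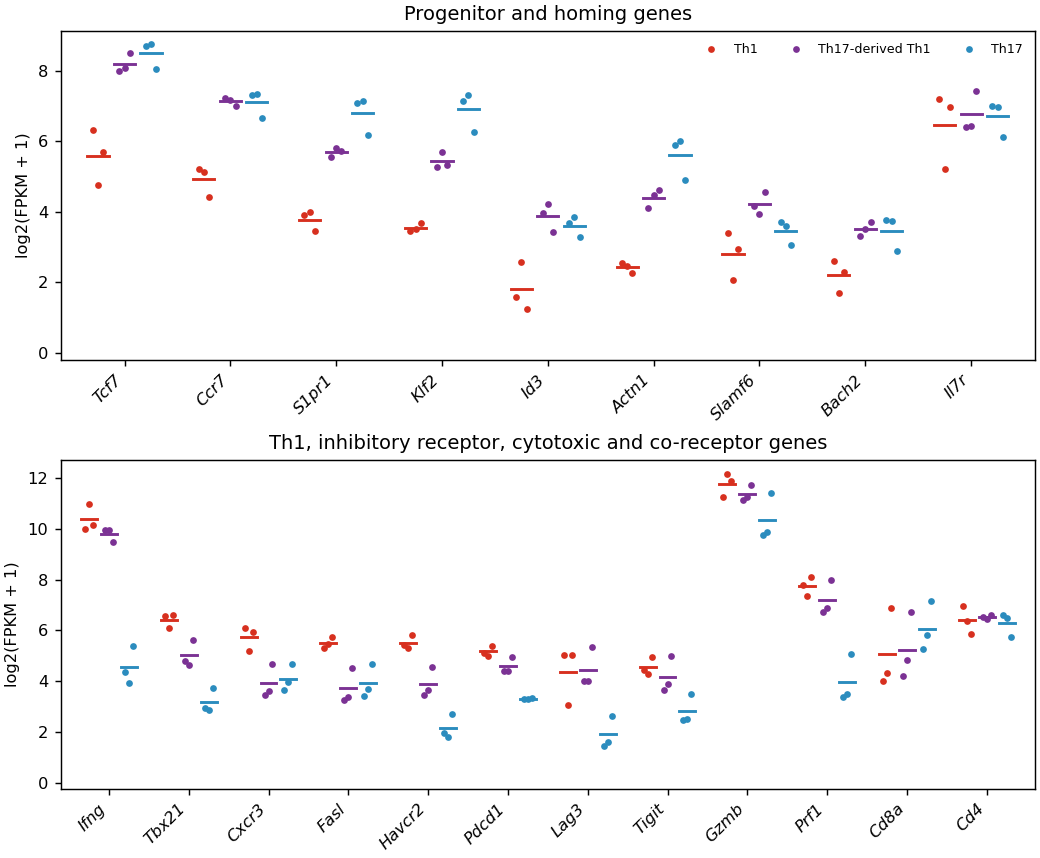
Log2(FPKM + 1) of progenitor and homing genes (top) and of Th1, inhibitory receptor, cytotoxic and co-receptor genes (bottom), with 1 point per library, replicates 1 to 3 from left to right, and bars for the group means. Th17-derived Th1 cells (purple) lie above Th1 (red) for Tcf7, Ccr7, S1pr1 and Klf2 and below it for Tbx21, Cxcr3 and Havcr2, and replicate 3 is the highest point of each group for Cd8a.

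Part of the Th17 program stood higher in the Th17-derived cells. Of 25 list members, 20 were tested, and 10 (50%) were higher and none lower, with a median log2 difference of 0.70. At an unadjusted p under 0.05 in limma, 11 of the 20 were higher and 1 was lower. Not every higher member was high in the Th17 libraries. Il21, given above, and Ltb4r1, a leukotriene B4 receptor, were lower in every Th17 than in any Th1 library. Ltb4r1 was at 39.7, 32.1 and 29.5 against 17.9, 15.1 and 20.3 FPKM, with 5.92 ± 0.55 FPKM in Th17. The other higher members had Th17 means above their Th1 means. Maf, a factor of Th17, follicular helper and IL-10-making cells, was at 49.9, 45.7 and 27.6 against 12.9, 7.6 and 7.14 FPKM (log2 2.04, SE 0.25, adjusted p = 0.00237). Tmem176a, a membrane protein gene that overlaps its neighbour Tmem176b, was at 28, 30.2 and 25.3 against 9.0, 4.14 and 7.21 FPKM (log2 1.94, adjusted p = 0.00178). Ahr, the aryl hydrocarbon receptor, was at 2.85, 3.82 and 1.8 against 0.781, 1.08 and 0.471 FPKM and 13 ± 0.718 FPKM in Th17 (log2 1.08, adjusted p = 0.0119), and just missed the threshold without Th17-derived Th1 replicate 1 (0.0512). Il17f, another IL-17 cytokine of these cells, was at 0.217, 0.408 and 0.0801 FPKM in Th17-derived Th1 and 0, 0 and 0.0386 FPKM in Th1 libraries and did not pass (adjusted p = 0.217), against 7.99 ± 0.678 FPKM in Th17. The list's higher count was 9 to 10 with any 1 library left out and 10 without replicate 3 of any group.

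Other progenitor and memory-like genes were higher beside Tcf7. Of 26 members, 25 were tested, 11 (44%) were higher, 1 was lower and the other 13 missed the threshold, with a median log2 difference of 0.51. Ccr7 was at 149, 145 and 127 against 36.1, 33.9 and 20.6 FPKM, and at 140.3 ± 35.3 FPKM in Th17. The groups were apart by 4.63-fold (log2 2.21, SE 0.24, adjusted p = 0.00124), with the Th17-derived libraries at the Th17 level. Klf2, the factor that keeps resting T cells in circulation, was at 37.6, 51.1 and 39.4 against 9.97, 10.5 and 11.8 FPKM (log2 1.88, SE 0.25, adjusted p = 0.00295). S1pr1, the receptor for egress from lymphoid organs that KLF2 induces, was at 46.6, 55.8 and 52.2 against 13.9, 14.9 and 9.92 FPKM (log2 1.93, SE 0.25, adjusted p = 0.00289). For both genes the Th17 libraries were higher still, at 126 ± 43.6 FPKM and 117 ± 38.9 FPKM. Id3, an inhibitor of E proteins, was at 14.6, 17.8 and 9.87 against 1.98, 4.98 and 1.37 FPKM (log2 2.08, adjusted p = 0.00668) and Actn1, an alpha-actinin, at 16.3, 21.2 and 23.8 against 4.85, 4.48 and 3.84 FPKM (log2 1.98, adjusted p = 0.0035).

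Slamf6, a surface marker of stem-like exhausted T cells, was at 16.9, 14.4 and 22.7 against 9.48, 3.22 and 6.67 FPKM (log2 1.42, adjusted p = 0.0253) and Bach2, a repressor of effector genes, at 8.97, 10.4 and 12.1 against 5.14, 2.23 and 3.9 FPKM (log2 1.31, adjusted p = 0.0224). Xcl1, a chemokine that attracts dendritic cells and that stem-like cells can carry, ran the other way, at 6.15, 11.2 and 7.42 against 37.6, 20.2 and 50.3 FPKM (log2 -1.94, SE 0.30, adjusted p = 0.00579). Its Th17 mean was 57.2 ± 0.707 FPKM, so the Th17-derived libraries lay below both other groups. Il7r, the IL-7 receptor, was at 83.8, 86.5 and 173 against 148, 36.5 and 125 FPKM (adjusted p = 0.759), with the groups overlapping. Slamf6 and Bach2 lost their calls without Th1 replicate 3 or Th17-derived Th1 replicate 1 or 2, Slamf6 also without Th17-derived Th1 replicate 3 (adjusted p up to 0.0791 and 0.084). Tcf7, Ccr7, Klf2, S1pr1, Id3, Actn1 and Xcl1 kept theirs with any 1 library left out. The list's higher count was 7 without Th1 replicate 3 or Th17-derived Th1 replicate 1 or 2, up to 12 in the other such fits, and 7 without replicate 3 of any group, where Xcl1 also missed the threshold.

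Inhibitory receptors and genes of exhaustion moved in both directions. Of 22 tested, 9 (40.9%) were lower, 4 (18.2%) higher and 9 did not pass (median log2 difference -0.61). Havcr2, which encodes TIM-3, was at 10.2, 11.6 and 22.9 against 42.3, 38.4 and 55.2 FPKM, and at 3.67 ± 1.62 FPKM in Th17. The Th17-derived libraries lay between the other groups (log2 -1.61, SE 0.31, adjusted p = 0.0146). Cd160 was at 10.5, 11.2 and 22 against 41, 27.6 and 52.6 FPKM (log2 -1.44, adjusted p = 0.0229), Entpd1, the ectoenzyme CD39, at 7.01, 8.39 and 15.3 against 24.8, 25.4 and 28.9 FPKM (log2 -1.35, adjusted p = 0.016), and Cd38, another ectoenzyme, at 4.47, 6.51 and 12.8 against 18.6, 15.8 and 24.6 FPKM (log2 -1.30, adjusted p = 0.0318). Each of these was lower in all 3 Th17-derived libraries than in any Th1 library. Cd160 stood at 36.5 ± 9.9 FPKM in Th17, so its Th17-derived libraries also lay below every Th17 library. Pdcd1, which encodes PD-1, was at 20.1, 20.2 and 30.3 against 34, 31.4 and 40.8 FPKM, a small difference at the edge of the threshold (log2 -0.59, SE 0.16, adjusted p = 0.0499). Prdm1, the factor Blimp-1, was at 3.74, 3.46 and 4.91 against 8.32, 6.43 and 8.4 FPKM (log2 -0.79, adjusted p = 0.0272).

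On the higher side, Cd101, a marker whose presence separates terminal from transitory exhausted cells, was at 7.78, 8.13 and 16.2 against 2.42, 1.32 and 2.99 FPKM (log2 1.81, SE 0.29, adjusted p = 0.00615) and Btla, a receptor of the CD28 family, at 45.3, 39.2 and 39.6 against 22.5, 17.5 and 15.2 FPKM (log2 1.14, adjusted p = 0.00746). Ctla4 was at 77.3, 70.4 and 85.4 against 41, 7.85 and 33.3 FPKM (log2 1.75, adjusted p = 0.0492) and Cd200r1, the receptor for CD200, was higher by 0.99 (adjusted p = 0.0408). Lag3 was at 15.3, 15.2 and 39.5 against 31.8, 7.43 and 31.8 FPKM, where the spread within each group exceeded the difference (log2 0.08, SE 0.58, adjusted p = 0.944). Tigit was at 11.5, 13.8 and 31.3 against 21.1, 18.4 and 30.2 FPKM (adjusted p = 0.567) and Tox, the factor of exhaustion, at 0.914, 1.1 and 0.571 against 0.877, 2.77 and 0.569 FPKM (adjusted p = 0.591), both with overlapping groups.

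Cd101 and Btla kept their calls with any 1 library left out. Havcr2 and Entpd1 lost theirs without Th1 replicate 3 or Th17-derived Th1 replicate 1 or 2 (adjusted p up to 0.0693 and 0.0748), and Cd160 and Prdm1 also without Th1 replicate 1 (up to 0.0992 and 0.115). Cd38 lost its call without Th1 replicate 1 or 3, Th17-derived Th1 replicate 1 or 2, or Th17 replicate 1 or 2 (up to 0.12), Pdcd1 and Cd200r1 without Th1 replicate 1 or 3, Th17-derived Th1 replicate 1 or 2, or any Th17 library (up to 0.188 and 0.149), and Ctla4 without Th1 replicate 3, any Th17-derived Th1 library, or any Th17 library (up to 0.137) and with the Cd8a and Cd8b1 covariate (0.0566). The lower count of the list was at most 3 without Th1 replicate 1 or 3 or Th17-derived Th1 replicate 1 or 2, 5 without Th17 replicate 2, up to 11 in the other such fits, and 7 without replicate 3 of any group. Its higher count was 2 without Th1 replicate 3, Th17-derived Th1 replicate 1 or 2, or any 1 Th17 library.

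Cytotoxic effectors were lower or did not pass. Of 25 members, 24 were tested, 5 (20.8%) were lower and none higher (median log2 difference -0.85). At an unadjusted p under 0.05 in limma, 12 of the 24 were lower and none higher. Gzmb, granzyme B and the most abundant, was at 2196, 2443 and 3349 against 2413, 4568 and 3725 FPKM and Prf1, perforin, at 105, 117 and 249 against 219, 161 and 273 FPKM. Neither passed (adjusted p = 0.583 and 0.5), and their groups overlapped. Klrg1, a receptor of terminal effector cells, was at 1.1, 1.03 and 2.12 against 10.1, 3.89 and 14.3 FPKM (log2 -1.99, SE 0.37, adjusted p = 0.0117) and Crtam, a marker of cytotoxic helper cells, at 1.32, 1.27 and 2.46 against 6.42, 3.03 and 7.36 FPKM (log2 -1.26, adjusted p = 0.0298). The remaining lower members included Gzmk and Fasl, given above. Klrg1 lost its call without Th17-derived Th1 replicate 1 or 2 (0.0573) and Crtam without Th1 replicate 1 or 3, Th17-derived Th1 replicate 1 or 2, or Th17 replicate 1 (up to 0.119). The summed FPKM of the list was 4313, 4627 and 8038 in Th17-derived Th1 and 7328, 9197 and 10990 in Th1 libraries, so replicate 3 with its Cd8a level of 104 FPKM was the highest Th17-derived library here too. Without replicate 3 of any group, 14 of the list were lower. The count was 11 without Th17-derived Th1 replicate 3, 2 without Th1 replicate 3 and 1 without Th17-derived Th1 replicate 1 or 2, and it was 13 with the Cd8a and Cd8b1 covariate.

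Of 26 genes induced through the T cell receptor, 8 (30.8%) were lower and 1 higher, with a median log2 difference of -0.25. Dusp2, a phosphatase that turns off MAP kinases, was at 30.0, 39 and 55 against 109, 96.6 and 145 FPKM (log2 -1.50, SE 0.21, adjusted p = 0.00415). Dusp5, another of that family, was lower (log2 -1.11, adjusted p = 0.0121), the early growth response factor Egr3 (log2 -1.22, adjusted p = 0.0419) and the orphan receptor Nr4a2 (log2 -1.24, adjusted p = 0.0298). Icos, the costimulator, was the 1 higher member, at 127, 108 and 121 against 96, 55.1 and 81.1 FPKM (log2 0.64, adjusted p = 0.0492). Of these, Dusp2 held with any 1 library left out. Dusp5 lost its call without Th1 replicate 3 or Th17-derived Th1 replicate 1 or 2 (0.059), Egr3 without Th1 replicate 1 or 3, Th17-derived Th1 replicate 1 or 2, or Th17 replicate 1 (up to 0.15), Nr4a2 without Th1 replicate 1 or 3, Th17-derived Th1 replicate 1 or 2, or Th17 replicate 2 (up to 0.121), and Icos without Th1 replicate 3, any Th17-derived Th1 library, or any Th17 library (up to 0.161) and with the Cd8a and Cd8b1 covariate (0.0583). The list's lower count was 1 without Th1 replicate 3 or Th17-derived Th1 replicate 1 or 2, 3 without Th1 replicate 1, 5 without Th17 replicate 1 or 2 and 5 without replicate 3 of any group.

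Part of the antiviral interferon-stimulated genes stood higher in Th17-derived Th1 cells. Of 37 members, 32 were tested, 13 (40.6%) were higher and 1 lower, and 18 did not pass, with a median log2 difference of 0.62. Rtp4, a receptor transporting protein induced by type I interferon, was at 18.2, 20.1 and 19.7 against 1.25, 1.13 and 1.71 FPKM, with 4.38 ± 1.77 FPKM in Th17. The Th17-derived libraries were thus above both other groups (log2 3.11, SE 0.20, adjusted p = 0.000105). Oasl2, of the oligoadenylate synthetase family, was at 8.8, 9.12 and 12.6 against 1.33, 0.776 and 0.77 FPKM (log2 2.51, SE 0.22, adjusted p = 0.000607). Ifit3, which binds viral RNA in a complex with other IFIT proteins, was at 11.8, 19.1 and 25.1 against 4.06, 1.57 and 4.34 FPKM (log2 2.20, adjusted p = 0.00479), and Cmpk2, a mitochondrial nucleotide kinase, at 6.79, 8.5 and 8.32 against 0.974, 1.1 and 0.949 FPKM (log2 2.14, adjusted p = 5.8e-05). Ifitm3, a membrane protein that blocks virus entry, was lower, at 90.7, 74.7 and 111 against 228, 315 and 265 FPKM (log2 -1.54, adjusted p = 0.00538). Ifit3 has the near-identical copy Ifit3b, and the Oas genes share sequence, so reads may be split between them. All 5 genes kept their calls with any 1 library left out, and the higher count was 8 without Th17-derived Th1 replicate 1 or 2, up to 16 in the other such fits, and 9 without replicate 3 of any group. Mx1, another list member, was at 10.3, 9.72 and 24.3 against 40.1, 46.8 and 55.6 FPKM. It just missed the threshold (log2 -1.73, adjusted p = 0.0518), while 28 of the 32 tested had a difference above 0.

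The promoter of Ifit3, chosen after its values were seen, is printed as an example of the interferon-stimulated response element, searched on both strands as GAAA, any 2 bases and GAAA. That motif lay in the 250 bases before the start of 14 of 27 antiviral genes with an entry and of 3.38% of all 8365 tested genes with one. Among the higher antiviral genes it was in 5 of 8. Ifit3 (chr19:34583279-34583528, plus strand, same source and build) holds 2 copies on the opposite strand, with first bases at -156 and -122, and TGANTCA at -56. All 3 are in capitals.
Ifit3: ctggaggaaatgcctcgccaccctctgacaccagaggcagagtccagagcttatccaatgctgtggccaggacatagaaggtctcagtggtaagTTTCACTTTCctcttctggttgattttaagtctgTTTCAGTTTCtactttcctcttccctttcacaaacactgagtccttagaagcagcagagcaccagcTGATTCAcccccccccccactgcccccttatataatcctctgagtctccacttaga

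Of 32 IFN-gamma-induced GTPase and antigen presentation genes, 30 were tested, 5 (16.7%) were higher and none lower (median log2 difference 0.17). At an unadjusted p under 0.05 in limma, 9 of the 30 were higher and none lower. Cxcl10, the chemokine that binds CXCR3, was at 117, 101 and 56.5 against 25.9, 7.19 and 24.6 FPKM (log2 2.31, SE 0.48, adjusted p = 0.0186). The immunity-related GTPases Irgm1, Irgm2 and Tgtp2 were higher by 0.95, 0.83 and 0.76 on the log2 scale (adjusted p = 0.0146, 0.00874 and 0.0178). Tgtp2 has the near-identical copy Tgtp1. Irgm2 kept its call with any 1 library left out, Cxcl10 lost it without Th17-derived Th1 replicate 1 or 2 (0.079), and Irgm1 and Tgtp2 lost it without either of these or Th1 replicate 3 (up to 0.0651 and 0.073). The list's higher count was 3 without Th1 replicate 3 and 1 without Th17-derived Th1 replicate 1 or 2.

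Receptors for cytokines were split. Of 32, 27 were tested, with 4 higher (14.8%) and 5 lower (18.5%). Ifngr2, the IFN-gamma receptor chain that limits signalling in Th1 cells, was at 4.23, 4.77 and 4.34 against 0.244, 0.75 and 0.232 FPKM (log2 1.97, SE 0.18, adjusted p = 0.000647). The other chain, Ifngr1, was lower, at 125, 129 and 171 against 258, 193 and 238 FPKM (log2 -0.70, adjusted p = 0.0268). Il6st, the signalling chain gp130 that IL-6 shares with related cytokines, was at 42, 33.7 and 42.7 against 23.9, 13.8 and 14.3 FPKM (log2 1.18, adjusted p = 0.00943), so both chains of the IL-6 receptor were higher. The 2 chains differed in Th17. Il6st was at 7.45 ± 1.15 FPKM there, with every Th17 library below every Th1 library, whereas Il6ra was high in Th17. Il2rb, the IL-2 receptor beta chain, was at 213, 216 and 285 against 371, 405 and 398 FPKM (log2 -0.73, adjusted p = 0.0477) and Il10ra at 14.7, 15.9 and 15.1 against 25.1, 24.8 and 26.5 FPKM (log2 -0.71, adjusted p = 0.00605). Il1rl1, the IL-33 receptor, was lower (log2 -1.59, adjusted p = 0.00931) and Il4ra higher by 0.85 (adjusted p = 0.00918). Ifngr1 lost its call without Th1 replicate 1 or 3 or Th17-derived Th1 replicate 1 or 2 (up to 0.113) and Il2rb without any Th1 library, Th17-derived Th1 replicate 1 or 2, or Th17 replicate 1 or 2 (up to 0.171). The lower count was 2 without Th1 replicate 1 or 3 or Th17-derived Th1 replicate 1 or 2 and 8 without Th1 replicate 2. The others named here kept their calls, and Il6st missed the threshold without replicate 3 of any group.

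Cytokine and chemokine genes, Il21 and Csf1 among them, were called in both directions. Of 43, 34 were tested, 8 (23.5%) were lower and 4 (11.8%) higher (median log2 difference -0.05). Ccl1, a chemokine of activated T cells, was at 1.97, 0.489 and 0.225 against 6.66, 5.7 and 8.01 FPKM (log2 -2.14, SE 0.34, adjusted p = 0.00667). Tgfb3, which with IL-6 gives Th17 cells of high pathogenicity, was at 2.39, 1.89 and 1.37 against 0.273, 0.141 and 0.195 FPKM (log2 1.25, adjusted p = 0.00325), and Areg, the growth factor amphiregulin, was higher by 0.79 (adjusted p = 0.0298). Il10 was at 98.8, 91.2 and 93.9 against 68.9, 106 and 107 FPKM and Csf2, GM-CSF, at 11, 12 and 10.4 against 8.3, 17.6 and 9.1 FPKM. Their differences, 0.04 and 0.01 on the log2 scale, were smaller than the spread of the Th1 libraries (adjusted p = 0.939 and 0.982), and both cytokines were far below these levels in Th17, at 12.9 ± 5.44 FPKM and 1.02 ± 0.0481 FPKM. Areg lost its call without Th1 replicate 1 or Th17-derived Th1 replicate 1 or 2 (up to 0.124), and Ccl1 missed the threshold without replicate 3 of any group. The lower count was 5 without Th1 replicate 3 and 4 without Th17-derived Th1 replicate 1 or 2, and the higher count 2 without either of the latter and 7 without Th1 replicate 2.

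Homing and adhesion genes divided by receptor. Of 31, 25 were tested, with 9 (36%) higher and 4 (16%) lower. Itgae, the integrin chain CD103 that TGF-beta induces, was at 5.93, 6.61 and 11.8 against 0.688, 1.19 and 0.695 FPKM, far below the 106 ± 3.86 FPKM of Th17. The Th17-derived libraries stood between the groups without overlap (log2 2.25, SE 0.21, adjusted p = 0.000726). Ccr4, a receptor of skin-homing and Th2 cells, was at 56, 50.8 and 37.4 against 19.3, 23.5 and 10.4 FPKM (log2 1.44, adjusted p = 0.0149). Itgal and Itgb2, which pair as the integrin LFA-1, were both lower, Itgal at 169.7, 174 and 240.0 against 415, 350.1 and 433 FPKM (log2 -1.05, adjusted p = 0.00983) and Itgb2 at 157, 158 and 204 against 307, 290.1 and 315 FPKM (log2 -0.82, adjusted p = 0.00295). Itga1, a collagen-binding integrin chain, was lower (log2 -1.10, adjusted p = 0.0253). Together with Gpr15, Ccr7 and S1pr1 on the higher side and Cxcr3 on the lower, these make up the named homing genes. Ccr4 lost its call without Th17-derived Th1 replicate 1 or 2 (0.0667), Itgal without Th17-derived Th1 replicate 2 (0.0518), and Itga1 without Th1 replicate 1 or 3 or Th17-derived Th1 replicate 1 or 2 (0.0911). The lower count was 2 without Th1 replicate 1 or 3 or Th17-derived Th1 replicate 1, 1 without Th17-derived Th1 replicate 2 and 7 without Th17 replicate 3. Without replicate 3 of any group it was 9, and the higher count 8.

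Of 16 follicular helper genes, 12 were tested, and 8 (66.7%) were higher and 1, Pdcd1, lower (median log2 difference 0.89). Besides Il21 and Slamf6 they included Pou2af1, the coactivator OBF-1, at 9.54, 7.87 and 5.5 against 0.547, 0.7 and 0.555 FPKM (log2 2.41, SE 0.20, adjusted p = 0.000414) and Cd200 at 6.08, 3.27 and 3.23 against 1.13, 0.626 and 0.674 FPKM (log2 1.49, adjusted p = 0.00501). Both held with any 1 library left out. The defining factor of that lineage, Bcl6, was at 1.33, 1.69 and 5.63 against 6.97, 1.52 and 7.87 FPKM and did not pass (adjusted p = 0.432). Cxcr5, the homing receptor of follicular helper cells, was at or below 0.109 FPKM in all 6 libraries and was not tested. Tnfsf8, the CD30 ligand, was higher by 0.46 (adjusted p = 0.0373), with its call lost without Th1 replicate 3, Th17-derived Th1 replicate 1 or 2, or Th17 replicate 1 or 2 (up to 0.137), and the receptor CD30, Tnfrsf8, was at 44.7, 38.3 and 32.9 against 8.98, 26 and 11.1 FPKM (log2 1.41, adjusted p = 0.0393). Tnfrsf8 lost its call without Th1 replicate 1 or 3, any Th17-derived Th1 library, or Th17 replicate 1 or 2 (up to 0.137). The list's higher count was 5 without Th1 replicate 3 or Th17-derived Th1 replicate 1 or 2 and 4 without replicate 3 of any group.

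In the regulatory list 4 of 16 tested (25%) were higher and 1 lower. Foxp3, its defining factor, was at 2.16, 4.43 and 1.7 against 0.378, 1.46 and 0.346 FPKM and just missed the threshold (log2 1.11, SE 0.31, adjusted p = 0.0504), with no overlap and 10.7 ± 2.14 FPKM in Th17. Izumo1r, the folate receptor FR4, and Capg, an actin-capping protein, were higher by 0.65 and 0.69 (adjusted p = 0.0339 and 0.0308). They lost their calls without Th1 replicate 1 or 3 or Th17-derived Th1 replicate 1 or 2 (Izumo1r, up to 0.124) and without Th1 replicate 1 or 3, Th17-derived Th1 replicate 1 or 2, or Th17 replicate 1 or 2 (Capg, up to 0.127). Over the fits that each left out 1 library, the regulatory list's higher count was between 1, without Th1 replicate 3 or Th17-derived Th1 replicate 1 or 2, and 7, without Th1 replicate 2, and 2 without Th1 replicate 1, Th17 replicate 1 or 2, or replicate 3 of any group. Among TGF-beta response genes, 4 of 19 (21.1%) were higher and none lower, with Smad7, the inhibitory SMAD, at 8.76, 10.8 and 11.7 against 4.96, 3.94 and 5.87 FPKM (log2 0.96, adjusted p = 0.0423, up to 0.144 without any Th1 library, any Th17-derived Th1 library, or Th17 replicate 1, and 0.0509 with the Cd8a and Cd8b1 covariate). At an unadjusted p under 0.05 in limma, 6 of these 19 were higher and 3 lower. In the Th2 list, where Ecm1, Ccr4, Il4ra and Areg were the higher members, 4 of 13 (30.8%) were higher and 1, Il1rl1, lower, and the higher count was 2 without Th17-derived Th1 replicate 1 or 2.

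**Figure D4:**
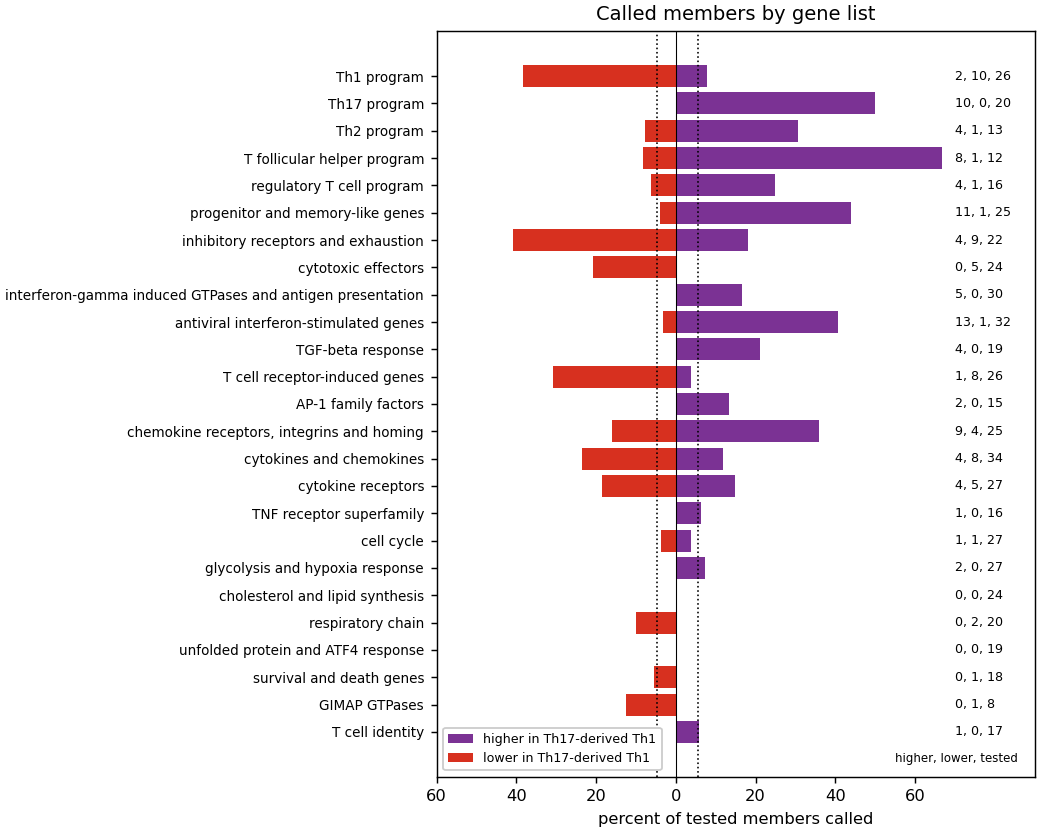
Percent of the tested members of each of 25 gene lists called higher (purple, to the right) or lower (red, to the left) in Th17-derived Th1 cells, with the counts of higher, lower and tested members at the right. Dotted lines mark the shares over all genes, 5.67% higher and 4.81% lower, and the follicular helper, Th17, progenitor and antiviral bars reach farthest right while the inhibitory and Th1 bars reach farthest left.

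Counts for genes of growth and metabolism stand beside 5.67% of all genes higher and 4.81% lower. In the cell cycle list 1 of 27 was higher and 1 lower, the topoisomerase Top2a at 373, 348 and 263 against 230.3, 232 and 191 FPKM (log2 0.58, adjusted p = 0.0314, and up to 0.128 without Th1 replicate 1 or 3, Th17-derived Th1 replicate 1 or 2, or Th17 replicate 1) and the replication clamp Pcna at 309.8, 300.1 and 263 against 439, 389.5 and 425 FPKM (log2 -0.52, adjusted p = 0.0102, and 0.0579 without replicate 3 of any group). Pdk1, the kinase that shuts pyruvate out of mitochondria, was at 22.2, 22.1 and 25.6 against 8.09, 6.78 and 6.61 FPKM (log2 1.58, SE 0.13, adjusted p = 0.000421) and Egln3, a prolyl hydroxylase induced by hypoxia, at 61.3, 46.6 and 41.8 against 21.7, 12.6 and 15 FPKM (log2 1.56, SE 0.20, adjusted p = 0.00276). These were the 2 higher of 27 glycolysis and hypoxia genes, and both held with any 1 library left out. Of 20 respiratory chain genes 2 were lower, among them Cox5a (log2 -0.53, adjusted p = 0.0216), which lost its call without Th1 replicate 3 or Th17-derived Th1 replicate 1 or 2 (up to 0.0882). None of 24 cholesterol and lipid genes and none of 19 unfolded protein and ATF4 genes passed limma's adjusted threshold, and 1 and 0 of them had an unadjusted p under 0.05. Pmaip1, the BH3-only protein NOXA, and Gimap5, a GTPase of lymphocyte survival, were the 1 lower gene of 18 survival and of 8 GIMAP genes (log2 -0.98 and -0.69, adjusted p = 0.0308 and 0.0339). Pmaip1 lost its call without Th1 replicate 1 or 3, Th17-derived Th1 replicate 1 or 2, or Th17 replicate 1 or 2 (up to 0.126) and Gimap5 without Th1 replicate 1 or 3, Th17-derived Th1 replicate 1 or 2, or Th17 replicate 1 (up to 0.133). Of 15 AP-1 and related factors 2 were higher, Maf and Bach2, neither of them a Fos or Jun protein, and 13 did not pass. Of 16 TNF receptor genes 1 was higher, Tnfrsf8. Cd2, an adhesion receptor, was the 1 call among 17 T cell identity genes, higher by 0.65 (adjusted p = 0.0117) and at 0.0551 without Th17-derived Th1 replicate 1.

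Markers of other cell types were summed in each library. Summed gamma-delta T cell markers were at 4.09 to 9.03 FPKM in Th17-derived Th1 and 0.794 to 2.40 in Th1 libraries, and Cd163l1, a scavenger receptor of IL-17-making gamma-delta cells, was at 3.19, 3.31 and 7.43 against 0.842, 0.568 and 1.77 FPKM (log2 1.42, adjusted p = 0.0196, and 0.0593 without Th1 replicate 1). Blk, a kinase of B cells and gamma-delta T cells, was higher by 0.58 (adjusted p = 0.0348), with its call lost without any Th1 library, any Th17-derived Th1 library, or Th17 replicate 1 or 2 (up to 0.126). The gamma-delta receptor genes on that list, Trdc, Trgc1, Tcrg-C1 and Trdv4, were not found under these names among the deposited gene symbols and could not be checked. Neutrophil markers summed to 12.4 to 35.9 FPKM and 3.22 to 5.85 FPKM, with Ly6g the largest part in each library at 9.38, 10.4 and 34.7 against 3.05, 2.25 and 2.4 FPKM (log2 2.19, adjusted p = 0.0134, and 0.0522 without Th1 replicate 3). S100a8, S100a9, Ngp, Elane and Retnlg were at 0 in all 6 libraries, and Ly6g is a close relative of Ly6c2, so reads may be shared. Dendritic cell markers summed to 25.5 to 35.1 and 11.5 to 30.1 FPKM, with Flt3 and Siglech at 0, H2-Aa higher and Itgax lower (log2 0.73 and -1.09, adjusted p = 0.0221 and 0.0477). H2-Aa lost its call without Th1 replicate 1 or 3 or Th17-derived Th1 replicate 1 (up to 0.0928) and Itgax without Th1 replicate 1 or 3, Th17-derived Th1 replicate 1 or 2, or Th17 replicate 1 or 2 (up to 0.162). Macrophage markers summed to 3.62 to 7.05 and 3.78 to 12.4 FPKM, with C1qa, C1qb, C1qc and Fcgr1 at 0, and NK markers to 28.3 to 58.9 and 33.2 to 47.5 FPKM. B cell markers stayed at or below 2.71 FPKM, mast cell and basophil markers at or below 1.30, and erythroid markers at or below 0.727 FPKM. The part of these markers in the results was not tested.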

How the data were processed

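The authors sequenced RNA of 9 mouse T cell cultures in 3 groups of 3, which the sample titles define. Their deposited table gives FPKM for 22017 gene symbols. The genome build mm10 and the tools HISAT2 and DESeq2 are named per the submitters' processing notes. Tool versions, the role of each tool, the gene annotation, strand use and multiply mapped reads are matters not given in the sources used here. FPKM holds no read counts, so depth is unknown and no count test was run. Of the symbols, 21962 were matched to the GENCODE annotation of GRCm38, and 15 had been turned into dates.

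Values were tested as log2(FPKM + 1) for genes at or above 1 FPKM in at least 3 of 9 libraries, with limma 3.58.1 in R 4.3.3 (all 9 libraries in 1 fit, mean-variance trend, 6 residual degrees of freedom, Benjamini-Hochberg). Tables were handled in Python 3.11.15 with pandas 2.3.3. On simulated data of 10397 genes for this comparison, 67, 67 and 66 genes were changed 1.5-, 2- and 4-fold. Of these, 56.7%, 82.1% and 98.5% were recovered, with 4.24% false calls. These rates describe the simulated libraries only. In the real data 10.5% of genes were called, a Th1 library stood apart and some libraries deviated together across genes. Recovery and false calls in the real data were not measured. Fits with libraries left out were not simulated.

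The naming rule took the 12 largest called differences in each direction (mean of at least 5 FPKM, no overlap between groups, no predicted gene, clone or receptor segment), up to 4 called members per list and direction, and 38 key genes, 125 genes in all, of which a few are not reported here. The comparison, its 34 lists and the key genes were chosen with earlier results of these data known. Alternatives were other pseudocounts, filters, scalings, array weights, robust moderation, the 6 libraries alone, a replicate block, a Cd8a and Cd8b1 covariate, and leaving out single libraries or all replicates 3. Promoters came from RefSeq.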

Additional observations from a re-analysis of the deposited data

How the results depend on the processing

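The 105 called genes chosen by the naming rule kept their direction under every alternative. Of them, 53 kept their call in all 9 fits that left out 1 library and 98 under every scaling. Calls lost numbered 25 with the 6 compared libraries alone, 26 without the FPKM filter and 25 without all replicates 3. Leaving out 1 library gave 215 to 1070 higher and 124 to 828 lower genes, and 128 to 217 and 71 to 234 at 2-fold or more. Array weights gave 3419 and 2011 (316 and 341 at 2-fold), a pseudocount of 5 gave 75 and 61 at 2-fold, the 6 libraries alone gave 303 lower, and leaving out all replicates 3 gave 327 higher genes. The cause of these shifts was not tested. With the replicate number as a block, 634 genes were higher and 621 lower; same-numbered libraries deviated together for numbers 2 and 3 (0.54 and 0.66) but not 1 (-0.18), and not every library correlated best with its own number, so the numbers were not taken as pairs. Log2 differences that did not pass the test changed sign. Lag3 was at -0.57 to 0.41 with 1 library left out, -0.82 with array weights, -0.034 without replicates 3 and -0.047 with the Cd8 covariate. Tox was at -0.52 to 0.11, and 0.21 with array weights. Csf2 was at -0.18 to 0.32, -0.0054 with a pseudocount of 5, -0.039 with median-ratio scaling, -0.055 with quantile normalization and -0.076 without replicates 3. Il10 was at -0.17 to 0.14, -0.015 with median-ratio scaling, -0.019 with array weights and -0.0064 with the covariate. Cd4 was at -0.13 to 0.42, and -0.17 without replicates 3. Cd8a was at -0.56 to 1.07, -1.26 with array weights and -0.12 with the covariate. Il7r was at -0.33 to 0.66, and -0.45 with array weights. FPKM values carry no depth, so counting error at low levels is unknown.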
